A study of Mus musculus with 17 samples.

Results

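The colon renews its epithelium from the base of the crypts, and the genes described here are genes of dividing cells and of crypt stem cells. They are 39 genes, chosen by name, of the 24854 gene and transcript names measured in the RNA of the colon. By role, 22 belong to mitosis, 12 to DNA replication, 3 to the passage through G1 (Ccne1, Ccnd1 and Myc), and 2 to crypt stem cells (Lgr5 and Ascl2). Each gene was read from 1 probe, the one with the highest mean in the authors' table of log2 values, out of 67 probes for the 39 genes, and all 39 probes were well above the background on all 17 arrays. PXR is a nuclear receptor that senses foreign compounds, encoded in the mouse by Nr1i2, and PCN (pregnenolone 16α-carbonitrile) is a ligand of the rodent receptor. Male WT and Pxr-/- mice received PCN at 100 mg/kg or its vehicle, corn oil (CONT), by daily intraperitoneal injection during 4 days, and were killed 6 h after the last injection. WT mice were C57Bl6/J, bought at 6 weeks of age and acclimatised during 2 weeks, and Pxr-/- mice were bred in house on a C57Bl6/J background, so that colony and genotype cannot be told apart. There were 4 arrays each of WT CONT, WT PCN and Pxr-/- PCN, and 5 of Pxr-/- CONT.

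In a dividing cell, E2F factors switch on cyclin E and the genes that license and copy DNA, among them the MCM helicase, the sliding clamp PCNA and the enzymes that make nucleotides. Later in the cycle, the MuvB complexes bind a promoter element called CHR, together with NF-Y at CCAAT boxes, and drive the genes of mitosis, such as cyclin B, CDK1 and the kinesins of the spindle. In the colon, division is restricted to the lower crypt, where Wnt signals keep the stem cells that carry LGR5 and the transcription factor ASCL2, and cells leave the cycle as they move up to become colonocytes.

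The promoters are shown because mitotic and replication genes are described apart. Of the 39 genes, 30 had a promoter in the RefSeq table of GRCm38.p6 (250 bases before to 50 after the start), and Gins2, Tpx2, Ccna2, Lgr5, Kif20a, Ccnd1, Myc, Mcm4 and Aurkb had none. A CHR was counted where the promoter held the letters TTTGAA, and likewise where it held TTTAAA, and also where it held TTCGAA. An E2F site was TTTGGCGC, TTTCCCGC, TTTCGCGC or TTTGCCGC. A CCAAT box was its own name in letters. Both strands were searched, and E2F sites may overlap one another, as they do in Mcm6. Each of the 30 genes was counted by its first promoter, whereas the shares of all promoters count 32851 promoters of 27025 genes. A CHR and a CCAAT box stood together in 16 of 18 mitotic promoters, 5 of 10 replication promoters and 11.3% of all 32851 promoters. An E2F site stood in 1 of 18 mitotic promoters, 5 of 10 replication promoters and 2.26% of all. Singly, a CHR was found in 17 mitotic and 5 replication promoters (28.8% of all), and a CCAAT box in 16 and 8 (37.4% of all). A match of letters is a description and not a site shown to be bound.

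The last 120 bases before the start are printed below, 5′ to 3′ on the strand of the gene, for 4 mitotic genes (a cyclin, its kinase, an activator and the ubiquitin enzyme of the anaphase-promoting complex), for the replication gene Mcm6 and for the stem cell gene Ascl2, with motifs in capitals.
Ccnb1, chr13:100786487-100786606, minus strand: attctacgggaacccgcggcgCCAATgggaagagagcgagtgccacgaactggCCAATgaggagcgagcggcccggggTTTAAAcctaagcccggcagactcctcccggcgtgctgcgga
Cdk1, chr10:69352913-69353032, minus strand: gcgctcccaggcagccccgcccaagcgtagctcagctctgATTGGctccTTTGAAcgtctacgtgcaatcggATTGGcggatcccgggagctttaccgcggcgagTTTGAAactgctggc
Cdc20, chr4:118437344-118437463, minus strand: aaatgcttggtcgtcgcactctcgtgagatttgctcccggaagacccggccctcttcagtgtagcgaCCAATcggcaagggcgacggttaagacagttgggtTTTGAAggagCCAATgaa
Ube2c, chr2:164769809-164769928, plus strand: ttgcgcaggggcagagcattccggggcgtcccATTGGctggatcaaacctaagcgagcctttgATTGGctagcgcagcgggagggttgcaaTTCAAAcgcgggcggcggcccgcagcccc
Mcm6, chr1:128359706-128359825, minus strand: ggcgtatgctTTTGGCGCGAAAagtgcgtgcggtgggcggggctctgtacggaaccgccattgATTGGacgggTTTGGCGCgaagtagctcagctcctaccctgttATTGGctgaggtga
Ascl2, chr7:142969265-142969384, minus strand: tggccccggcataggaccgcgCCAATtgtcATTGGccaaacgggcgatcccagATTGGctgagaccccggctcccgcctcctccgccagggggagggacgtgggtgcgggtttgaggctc
In the 4 mitotic promoters a CHR lies downstream of at least 1 CCAAT box, which reads ATTGG on the other strand. Cdk1 also has an E2F site, at -131 from the start and thus outside the bases printed. Mcm6 carries E2F sites and CCAAT boxes without a CHR, and Ascl2 has CCAAT boxes alone. Mcm6 does not stand for all replication genes, since 5 of their 10 promoters held both a CHR and a CCAAT box.

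The labels of 4 arrays are in question. WT PCN 4 and Pxr-/- PCN 2 were near-identical, with a standard deviation of their log2 differences of 0.172 over 38646 probes, and so were WT PCN 3 and Pxr-/- CONT 2 (0.198), whereas the other 134 pairs of arrays lay between 0.297 and 0.616. Over the 39 genes described here, both members of the first pair differed by 0.05 on average and those of the second by 0.07. Nr1i2 itself was read at 11.97 to 12.31 on the log2 scale in the arrays labelled WT CONT, at 12.44, 11.85, 11.10 and 11.15 in those labelled WT PCN 1 to 4, at 10.39 to 11.61 in Pxr-/- CONT and at 10.95 to 11.93 in Pxr-/- PCN. The arrays labelled WT PCN 2, 3 and 4 thus lay within the range of those labelled Pxr-/-, and since the probe is still read in Pxr-/- arrays it does not settle the labels. Group names below are those of the labels. The main counts, medians and largest differences are given on all 17 arrays and again without these 4. The count of intervals of the interaction is also given both ways. Levels, ranges, overlaps, other counts of intervals, further probes and single genes outside the 39 are given on all 17 alone. RNA of other organs also differed between samples. The mean log2 level of 8 pancreatic enzymes was 17.60 in WT CONT 4, 15.46 in WT PCN 3, 15.42 in Pxr-/- CONT 2 and 11.38 in WT PCN 1, against 6.59 to 7.05 in the other 13 arrays. The mean of a liver list, of which 6 of 8 genes were tested, reached 12.43 in WT CONT 5, 10.24 in WT PCN 1 and 9.75 in WT PCN 2, against 7.07 to 8.38 in the other 14.

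**Figure D1:**
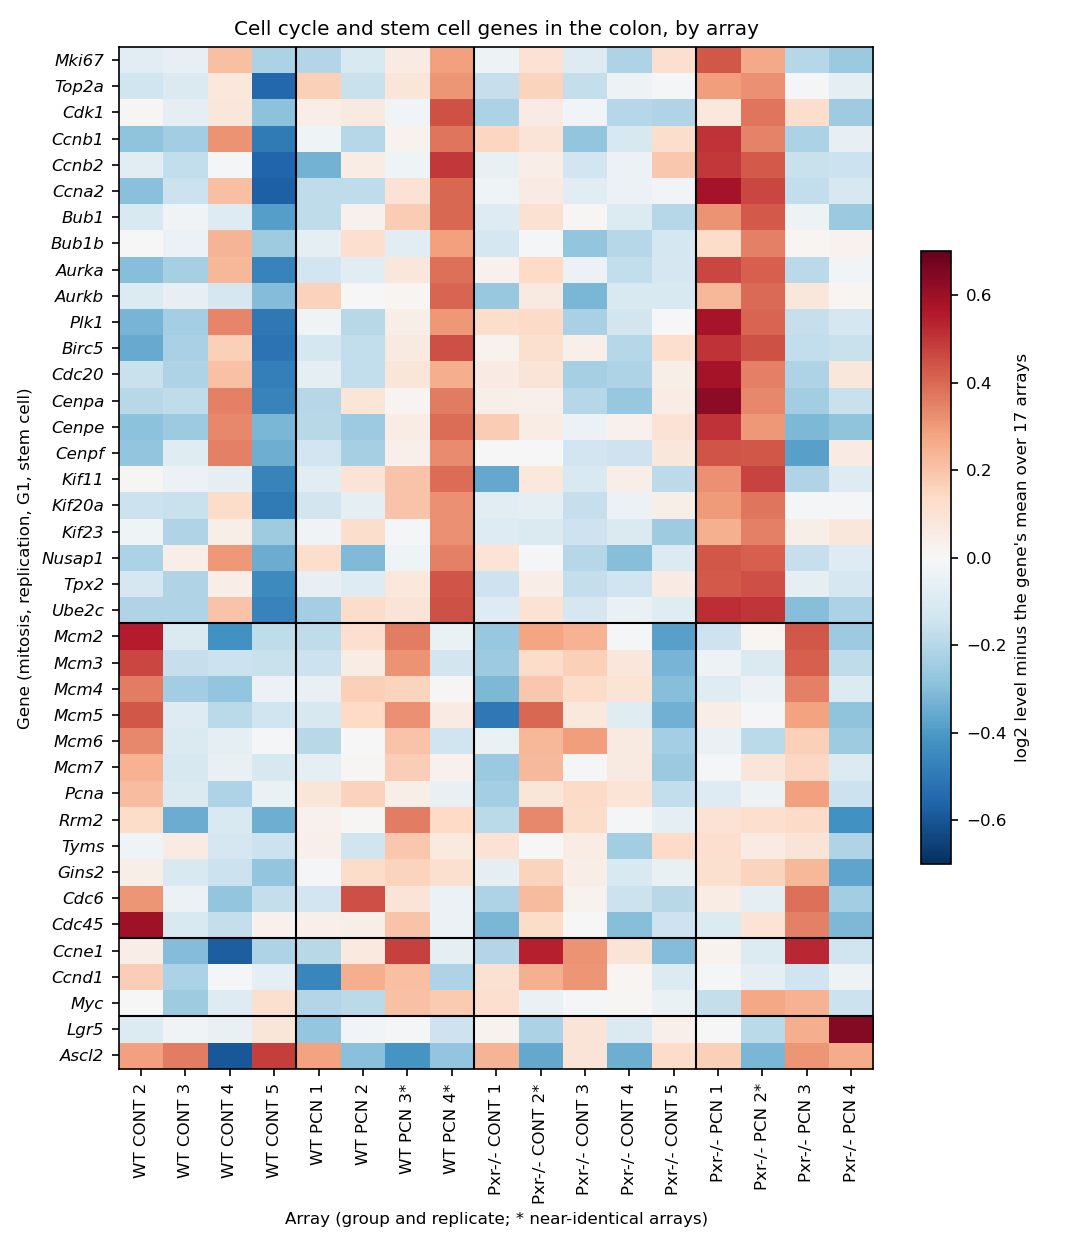
Log2 level of each of the 39 genes (rows, by role) on each of the 17 arrays (columns, by group and replicate), minus the mean of that gene over the 17 arrays; asterisks mark the 4 near-identical arrays. The mitotic genes are high together in WT PCN 4, Pxr-/- PCN 1 and Pxr-/- PCN 2 and low in WT CONT 5, while the replication genes are high in WT CONT 2, WT PCN 3, Pxr-/- CONT 2 and Pxr-/- PCN 3.

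The 22 mitotic genes were mostly high or low on the same arrays. The 3 arrays with the highest mean were all labelled PCN, while the other PCN arrays lay within the range of CONT. Their mean log2 level was 10.41, 10.44, 10.74 and 10.16 in WT CONT 2 to 5, 10.49, 10.51, 10.63 and 10.95 in WT PCN 1 to 4, 10.53, 10.63, 10.44, 10.45 and 10.56 in Pxr-/- CONT 1 to 5, and 10.99, 10.97, 10.44 and 10.48 in Pxr-/- PCN 1 to 4. In WT, 1 PCN array (WT PCN 4, whose genotype label is in question) lay above all CONT arrays and 3 lay within their range. In Pxr-/- mice Pxr-/- PCN 1 and 2 lay above all CONT arrays, and Pxr-/- PCN 3 and 4 within their range. Pxr-/- PCN 1, Pxr-/- PCN 2 and WT PCN 4 were each among the 3 highest arrays for 20 of the 22 genes, and the latter pair is the near-identical one that carries both genotype labels. WT CONT 4 came next, among the 4 highest for 14 genes, and WT CONT 5 was the lowest array for 18 genes and among the 3 lowest for all 22. Between the lowest and the highest array the 22 genes spanned 0.61 (Kif23) to 1.15 (Ccna2) on the log2 scale.

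Mki67, which encodes the proliferation antigen Ki-67 that coats mitotic chromosomes, shows the overlap of the groups. Mki67 was at 12.97, 13.00, 13.26 and 12.83 in WT CONT 2 to 5, 12.85, 12.95, 13.11 and 13.34 in WT PCN 1 to 4, 13.01, 13.15, 12.96, 12.84 and 13.17 in Pxr-/- CONT 1 to 5, and 13.49, 13.32, 12.85 and 12.79 in Pxr-/- PCN 1 to 4, on the log2 scale. Means with SD were 13.02 ± 0.18 for the 4 WT CONT arrays, 13.06 ± 0.21 for 4 WT PCN, 13.03 ± 0.14 for 5 Pxr-/- CONT and 13.11 ± 0.34 for 4 Pxr-/- PCN. The PCN and CONT arrays thus overlapped in both genotypes, and Pxr-/- PCN held both the highest and the lowest of the 17 arrays.

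Top2a encodes the topoisomerase that untangles DNA before division. Top2a was at 11.59, 11.63, 11.81 and 11.18 in WT CONT 2 to 5, 11.90, 11.58, 11.81 and 12.04 in WT PCN 1 to 4, 11.57, 11.89, 11.57, 11.70 and 11.72 in Pxr-/- CONT 1 to 5, and 12.02, 12.05, 11.72 and 11.66 in Pxr-/- PCN 1 to 4, on the log2 scale. All groups overlapped, and WT CONT 5 stood lowest. Cdk1 is the kinase that drives entry into mitosis. Cdk1 was at 9.45, 9.37, 9.52 and 9.15 in WT CONT 2 to 5, 9.48, 9.50, 9.42 and 9.89 in WT PCN 1 to 4, 9.22, 9.49, 9.42, 9.24 and 9.23 in Pxr-/- CONT 1 to 5, and 9.51, 9.81, 9.56 and 9.19 in Pxr-/- PCN 1 to 4, on the log2 scale. The near-identical arrays WT PCN 4 and Pxr-/- PCN 2 were the highest. Ccnb1 encodes cyclin B1, the partner of CDK1. Ccnb1 was at 10.32, 10.36, 10.92 and 10.11 in WT CONT 2 to 5, 10.57, 10.40, 10.63 and 10.98 in WT PCN 1 to 4, 10.75, 10.69, 10.33, 10.49 and 10.72 in Pxr-/- CONT 1 to 5, and 11.11, 10.95, 10.38 and 10.54 in Pxr-/- PCN 1 to 4, on the log2 scale. The CONT groups reached 10.92 and 10.75, above at least 2 arrays of each PCN group.

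The replication genes followed another order of arrays. Their mean log2 level was 11.15, 10.73, 10.66 and 10.72 in WT CONT 2 to 5, 10.79, 10.94, 11.06 and 10.85 in WT PCN 1 to 4, 10.63, 11.05, 10.95, 10.81 and 10.65 in Pxr-/- CONT 1 to 5, and 10.84, 10.85, 11.12 and 10.61 in Pxr-/- PCN 1 to 4. WT CONT 2 was the highest array for 7 of the 12 genes, and WT PCN 3 was among the 3 highest for 8, Pxr-/- PCN 3 for 7 and Pxr-/- CONT 2 for 5. Pxr-/- CONT 1 and Pxr-/- PCN 4 were each among the 3 lowest for 8 genes. WT CONT 4 was thus high for the mitotic and low for the replication genes, and Pxr-/- PCN 3 was high for the replication genes and at the level of CONT for the mitotic ones. The mitotic mean minus the replication mean, a difference of levels from different probes whose size has no meaning of its own, went from -0.74 in WT CONT 2 to 0.14 in Pxr-/- PCN 1, and its means with SD were -0.38 ± 0.35 for the 4 WT CONT arrays, -0.26 ± 0.25 for 4 WT PCN, -0.30 ± 0.19 for 5 Pxr-/- CONT and -0.14 ± 0.38 for 4 Pxr-/- PCN.

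**Figure D2:**
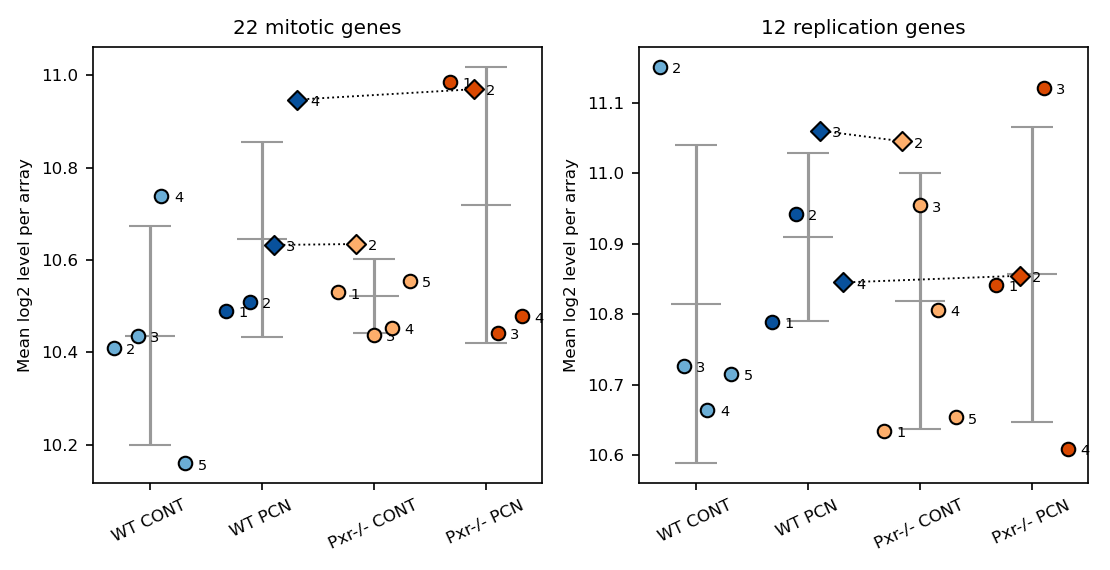
Mean log2 level of the 22 mitotic genes (left) and the 12 replication genes (right) on each array, numbered by replicate, with the mean and SD of each group in grey. Diamonds are the near-identical arrays, and dotted lines join the pairs. The pair WT PCN 4 and Pxr-/- PCN 2 is at 10.95 and 10.97 for the mitotic genes, above every CONT array.

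PCNA, encoded by Pcna, is the clamp that holds DNA polymerase on its template. Pcna was at 13.21, 12.89, 12.78 and 12.95 in WT CONT 2 to 5, 13.08, 13.16, 13.03 and 12.94 in WT PCN 1 to 4, 12.76, 13.08, 13.13, 13.09 and 12.82 in Pxr-/- CONT 1 to 5, and 12.91, 12.96, 13.28 and 12.84 in Pxr-/- PCN 1 to 4, on the log2 scale. The ranges of the 4 groups overlapped throughout. Mcm6 encodes a subunit of the replicative helicase. Mcm6 was at 13.50, 13.07, 13.10 and 13.15 in WT CONT 2 to 5, 12.97, 13.16, 13.36 and 13.03 in WT PCN 1 to 4, 13.12, 13.40, 13.46, 13.23 and 12.93 in Pxr-/- CONT 1 to 5, and 13.12, 12.98, 13.33 and 12.91 in Pxr-/- PCN 1 to 4, on the log2 scale. Here each PCN group lay within or close to the range of its CONT group, with means and SD of 13.20 ± 0.20 for the 4 WT CONT arrays, 13.13 ± 0.17 for 4 WT PCN, 13.23 ± 0.21 for 5 Pxr-/- CONT and 13.09 ± 0.19 for 4 Pxr-/- PCN. Rrm2 encodes a subunit of ribonucleotide reductase, which makes deoxynucleotides. Rrm2 was at 11.00, 10.53, 10.77 and 10.53 in WT CONT 2 to 5, 10.91, 10.88, 11.24 and 11.02 in WT PCN 1 to 4, 10.69, 11.22, 11.01, 10.87 and 10.81 in Pxr-/- CONT 1 to 5, and 10.98, 10.99, 11.01 and 10.45 in Pxr-/- PCN 1 to 4, on the log2 scale. Pxr-/- PCN 4 was the lowest of all and WT PCN 3 the highest. Of the other replication genes, the helicase subunit gene Mcm2 spanned the widest range, from 9.34 in WT CONT 4 to 10.32 in WT CONT 2, and the thymidylate synthase gene Tyms the narrowest, from 11.78 in Pxr-/- CONT 4 to 12.22 in WT PCN 3.

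PCN in WT mice changed none of the 39 genes past the threshold used, an FDR of at most 0.05 with a fold change over 1.5 in limma, and the lowest adjusted p among them was 0.956. That count was 0 of 39, beside 0% of the 38703 probes tested. At an unadjusted p under 0.05 it was 1 of 39, beside 4.66% of all probes. The log2 difference of PCN minus CONT was above 0 in 33 of 39 genes, beside 49.9% of all probes, with a median of 0.17 beside -1e-04 over all probes. By role, it was above 0 in 22 of 22 mitotic genes (median 0.24), 9 of 12 replication genes (median 0.04), 2 of 3 G1 genes and neither stem cell gene. The genes share arrays and follow one another across them, so these counts are not independent. For 28 of the 39 genes the whole 95% interval of the difference lay within 1.5-fold in either direction.

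The 3 largest differences in WT mice were those of Birc5, Aurkb and Ascl2. Birc5 encodes survivin and Aurkb the kinase Aurora B, both of the chromosomal passenger complex that corrects attachments to the spindle. Birc5 had a mean with SD of 12.92 ± 0.29 over 4 WT CONT arrays and of 13.21 ± 0.28 over 4 WT PCN arrays, a log2 difference of 0.30 ± 0.19 (SE, adjusted p = 0.956 in limma). Aurkb was at 8.87, 8.91, 8.85 and 8.67 in WT CONT 2 to 5, 9.13, 8.97, 8.98 and 9.38 in WT PCN 1 to 4, 8.71, 9.03, 8.65, 8.86 and 8.86 in Pxr-/- CONT 1 to 5, and 9.20, 9.37, 9.05 and 8.98 in Pxr-/- PCN 1 to 4, on the log2 scale. The WT PCN arrays, at 8.97 to 9.38, lay above the WT CONT arrays, at 8.67 to 8.91, and Aurkb was the only 1 of the 39 genes whose WT groups did not overlap, beside 2.64% of all probes. Its log2 difference was 0.28 ± 0.12 (SE, unadjusted p = 0.0275 and adjusted p = 0.956 in limma). A second probe for Aurkb gave 0.18 ± 0.14 (SE, adjusted p = 0.956 in limma). Ascl2 had a log2 difference of -0.28 ± 0.24 (SE, adjusted p = 0.956 in limma). Without the 4 near-identical arrays Birc5 was at 0.08 ± 0.20 and Ascl2 at -0.14 ± 0.29 (SE, each with an adjusted p of 1 in limma).

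In Pxr-/- mice, which lack the receptor that PCN binds, most of these genes were also higher under PCN without passing the test. None of the 39 genes was called, beside 0.00517% of all probes (2 probes), and the lowest adjusted p was 0.44. At an unadjusted p under 0.05 there were 3 of 39, all mitotic, beside 7.35% of all probes. The log2 difference was above 0 in 34 of 39 genes, beside 52% of all probes, with a median of 0.15 beside 0.01 over all probes. It was above 0 in 21 of 22 mitotic genes (median 0.21), 10 of 12 replication genes (median 0.03), 1 of 3 G1 genes and both stem cell genes. For 33 of the 39 genes the 95% interval lay within 1.5-fold.

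**Figure D3:**
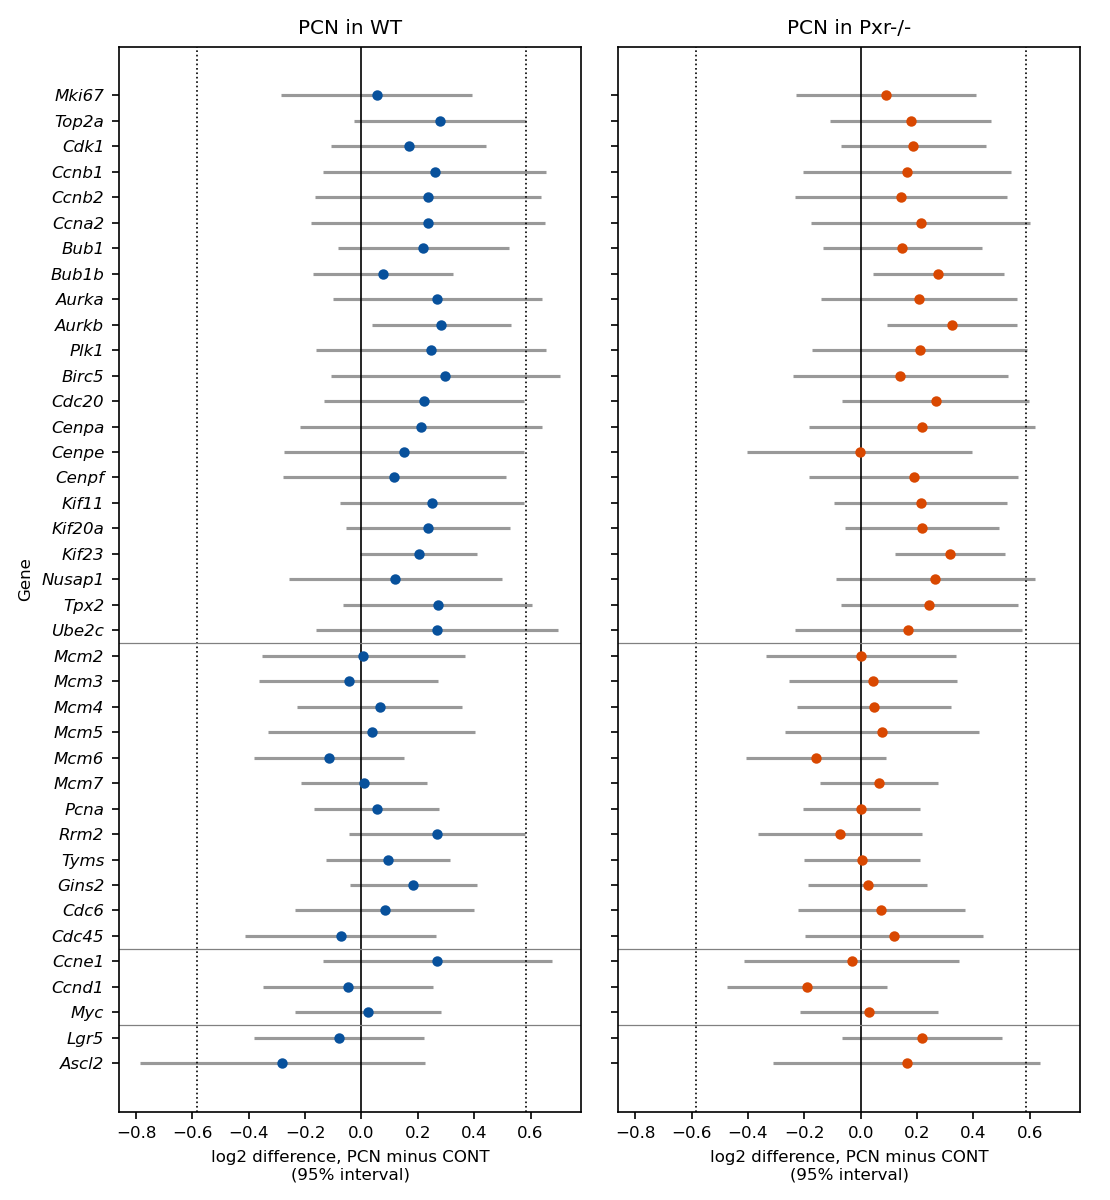
Log2 difference of PCN minus CONT in WT (left) and Pxr-/- mice (right) for each of the 39 genes, with its 95% interval from limma; dotted lines mark a 1.5-fold difference and grey lines separate the roles. The points of the mitotic genes lie mostly right of 0 in both genotypes, and only the intervals of Aurkb in WT, and of Aurkb, Kif23 and Bub1b in Pxr-/-, leave out 0 before adjustment.

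The 3 largest differences in Pxr-/- mice were those of Aurkb, Kif23 and Bub1b. Aurkb had a mean with SD of 8.82 ± 0.15 over 5 Pxr-/- CONT arrays and of 9.15 ± 0.17 over 4 Pxr-/- PCN arrays, a log2 difference of 0.32 ± 0.11 (SE, unadjusted p = 0.00915 and adjusted p = 0.524 in limma), and its groups overlapped. Kif23 encodes a kinesin of the central spindle that is needed to separate daughter cells. Kif23 was at 8.73, 8.55, 8.80 and 8.51 in WT CONT 2 to 5, 8.73, 8.88, 8.75 and 9.08 in WT PCN 1 to 4, 8.67, 8.66, 8.61, 8.66 and 8.51 in Pxr-/- CONT 1 to 5, and 9.01, 9.11, 8.80 and 8.84 in Pxr-/- PCN 1 to 4, on the log2 scale. Its log2 difference was 0.32 ± 0.09 (SE, unadjusted p = 0.00365 and adjusted p = 0.44 in limma), with every Pxr-/- PCN array above every Pxr-/- CONT array, whereas its 3 other probes gave -0.24 to 0.10. Bub1b encodes the checkpoint kinase BUBR1. It lay at 7.91 to 8.18 in Pxr-/- CONT and at 8.20 to 8.54 in Pxr-/- PCN, a log2 difference of 0.27 ± 0.11 (SE, adjusted p = 0.61 in limma). Kif23 and Bub1b were the 2 of 39 genes whose Pxr-/- groups did not overlap, beside 2.8% of all probes. In WT mice the differences of these genes were 0.20 ± 0.10 (SE) for Kif23 and 0.08 ± 0.12 (SE) for Bub1b.

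Without the 4 near-identical arrays the difference in WT mice was smaller. The mitotic median in WT went from 0.24 to 0.07 and the median of all 39 genes from 0.17 to 0.07, with 27 of 39 genes above 0 (18 of 22 mitotic), beside 48.9% of all probes. WT PCN was then left with 2 arrays. In Pxr-/- mice the median of the 39 genes was 0.14 (before, 0.15), with 33 of 39 above 0 beside 52.6% of all probes, while the mitotic median went from 0.21 to 0.14 and the replication median from 0.03 to 0.18. None of the 39 genes was called in either comparison, beside 0.0491% (19 probes) in WT and 0.0517% (20 probes) in Pxr-/-. At an unadjusted p under 0.05 there were 0 of 39 in WT, beside 4.68% of all probes, and 3 of 39 in Pxr-/-, beside 7.19%. These 3 were Aurkb (log2 difference 0.31 ± 0.10, SE, adjusted p = 0.544 in limma), Kif23 (0.27 ± 0.10, SE, adjusted p = 0.596 in limma) and the helicase gene Mcm5 (0.29, adjusted p = 0.681 in limma). Bub1b was then at 0.23 ± 0.11 (SE, adjusted p = 0.715 in limma). Aurkb in WT was at 0.22 ± 0.11 (SE, adjusted p = 1 in limma).

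**Figure D4:**
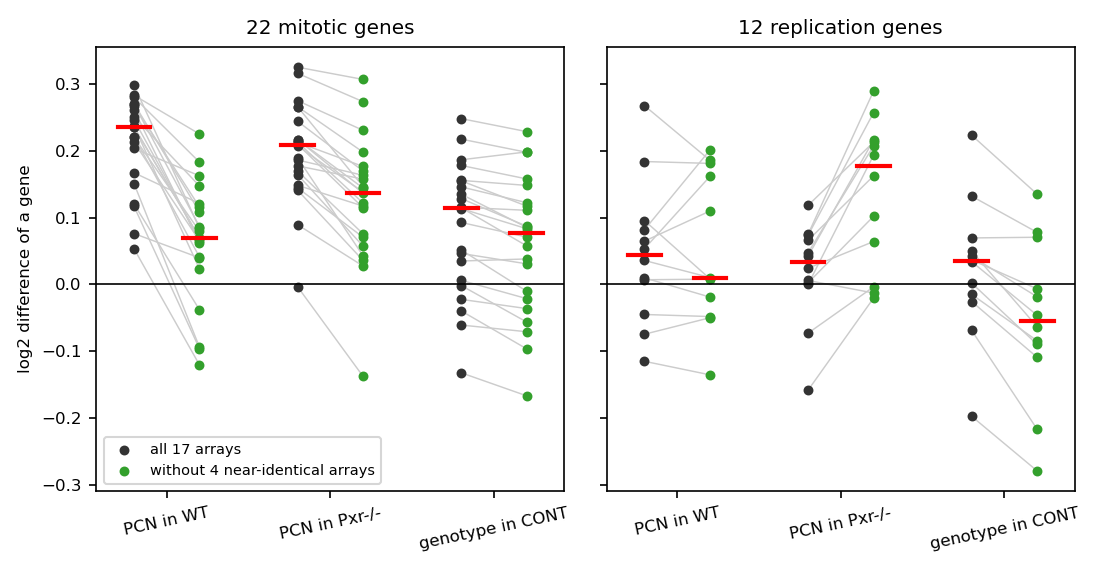
Log2 difference of each mitotic gene (left) and replication gene (right) in 3 comparisons, fitted on all 17 arrays (black) and without the 4 near-identical arrays (green); grey lines join a gene and red bars are medians. The mitotic median of PCN in WT goes from 0.24 to 0.07, and the replication median of PCN in Pxr-/- from 0.03 to 0.18.

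Single arrays weighed on the medians. The median of the 39 genes for PCN in Pxr-/- was 0.06 without Pxr-/- PCN 1, and the mitotic median was 0.10 without it and 0.11 without Pxr-/- PCN 2, while it was 0.32 without Pxr-/- PCN 3. Without Pxr-/- PCN 4 the median of the 39 genes was 0.24. For PCN in WT the median of the 39 genes was 0.10 without WT CONT 5 and 0.10 without WT PCN 4, and the mitotic median 0.14 without either array. WT CONT 5, the lowest array for the mitotic genes, is also the array with the highest level of liver genes, and their part in the result was not tested. Within wash bath 1 the mitotic median was 0.29 in WT and 0.26 in Pxr-/- mice, and within wash bath 2 it was 0.05 and 0.17. The WT value of wash bath 2 sets 1 PCN array (WT PCN 1) against 2 CONT arrays.

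The genotype comparison without PCN sets Pxr-/- against WT mice, where loss of PXR cannot be told apart from colony. Between Pxr-/- CONT and WT CONT, 0 of 39 genes were called in limma, beside 0% of all probes, and 0 of 39 had an unadjusted p under 0.05, beside 12.7% of all probes. The log2 difference of Pxr-/- minus WT was above 0 in 28 of 39 genes, beside 52.1% of all probes, with a median of 0.05 beside 0.01 over all probes. It was above 0 in 17 of 22 mitotic genes (median 0.11), 8 of 12 replication genes (median 0.04) and 3 of 3 G1 genes, and 34 of 39 intervals lay within 1.5-fold. No gene of the 39 had groups that did not overlap, beside 5.39% of all probes. Without the 4 arrays, 22 of 39 genes were above 0, beside 52.7% of all probes, 0 of 39 had an unadjusted p under 0.05, beside 10.1%, and the replication median turned to -0.05, with 3 of 12 genes above 0. Without WT CONT 5 alone the median of the 39 genes was 0.00 and the mitotic median turned to -0.01, and without WT CONT 4 alone they were 0.11 and 0.21. Without WT CONT 2 the median of the 39 genes was 0.10.

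The largest genotype difference without PCN was that of Ccne1, which encodes cyclin E1, the cyclin that opens S phase. Ccne1 was at 9.81, 9.46, 9.18 and 9.54 in WT CONT 2 to 5, 9.57, 9.83, 10.24 and 9.70 in WT PCN 1 to 4, 9.55, 10.30, 10.07, 9.85 and 9.46 in Pxr-/- CONT 1 to 5, and 9.79, 9.67, 10.29 and 9.62 in Pxr-/- PCN 1 to 4, on the log2 scale. The log2 difference was 0.38 ± 0.18 (SE, unadjusted p = 0.0524 and adjusted p = 0.396 in limma), and 0.24 without the 4 arrays, of which Pxr-/- CONT 2 held the highest level of Ccne1 of all. Pxr-/- CONT 1 and 5 lay within the range of WT CONT. Next came Birc5 (0.25 ± 0.18, SE, adjusted p = 0.571 in limma) and Rrm2 (0.22 ± 0.14, SE, adjusted p = 0.508 in limma), which were at 0.23 and 0.13 without the 4 arrays.

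Under PCN, 0 of 39 genes differed between genotypes past the threshold in limma, beside 0% of all probes, and 0 of 39 had an unadjusted p under 0.05, beside 3.28%. The largest log2 differences of Pxr-/- PCN minus WT PCN were those of Lgr5 (0.28 ± 0.14, SE), Ascl2 (0.25 ± 0.24, SE) and Ccna2, the cyclin A2 gene (0.15 ± 0.19, SE), each with an adjusted p of 1 in limma. Without the 4 arrays, 0 of 39 genes were called, beside 0.0207% of all probes (8 probes), and 1 of 39, Lgr5, had an unadjusted p under 0.05, beside 7.56%. Lgr5 was then at 0.44, Ascl2 at 0.24 and Ccna2 at 0.26. Whether PCN acted differently in both genotypes was tested by the interaction, in which 0 of 39 genes were called, beside 0% of all probes, and 0 of 39 had an unadjusted p under 0.05, beside 5.38%. Its largest values were 0.44 ± 0.32 (SE, adjusted p = 0.852 in limma) for Ascl2, -0.34 ± 0.20 (SE, adjusted p = 0.848) for Rrm2 and -0.30 ± 0.26 (SE, adjusted p = 0.859) for Ccne1. Without the 4 arrays these were 0.35, -0.19 and 0.03, with 0 of 39 called, beside 0.00258% of all probes (1 probe), and 0 of 39 at an unadjusted p under 0.05, beside 2.95%. On all 17 arrays the interval of the interaction lay within 1.5-fold for 24 of the 39 genes, and without the 4 arrays for 19. For the remaining genes, 15 on all 17 arrays, a difference of that size between genotypes could not be left out. Both PCN comparisons were fitted with the same estimate of spread, and by label they share no array. Each near-identical pair, however, has 1 array in the WT and 1 in the Pxr-/- comparison. On all 17 arrays the PCN comparisons are therefore not independent. The genotype comparison under PCN and the interaction set WT PCN 4 and Pxr-/- PCN 2 against each other. In the interaction WT PCN 3 and Pxr-/- CONT 2 enter with the same sign and do not offset each other.

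Of the G1 genes, Ccnd1 encodes cyclin D1, the cyclin that answers growth signals, and Myc a transcription factor driven by Wnt signals in the crypt. Ccnd1 was at 12.23, 11.83, 12.05 and 11.99 in WT CONT 2 to 5, 11.60, 12.31, 12.27 and 11.84 in WT PCN 1 to 4, 12.16, 12.30, 12.36, 12.07 and 11.96 in Pxr-/- CONT 1 to 5, and 12.04, 11.99, 11.92 and 12.02 in Pxr-/- PCN 1 to 4, on the log2 scale. The lowest array was WT PCN 1, and Pxr-/- PCN was the tightest group, at 11.99 ± 0.05 (SD, n = 4). Myc was at 9.96, 9.71, 9.87 and 10.07 in WT CONT 2 to 5, 9.75, 9.77, 10.16 and 10.14 in WT PCN 1 to 4, 10.08, 9.91, 9.95, 9.97 and 9.91 in Pxr-/- CONT 1 to 5, and 9.79, 10.23, 10.20 and 9.81 in Pxr-/- PCN 1 to 4, on the log2 scale. Both PCN groups held arrays at 9.81 or lower and arrays at 10.14 or higher, and the CONT groups lay between 9.71 and 10.08. In WT PCN, however, both high arrays were near-identical ones, and the others, at 9.75 and 9.77, lay within the range of WT CONT. In Pxr-/- PCN the array at 10.23 was the near-identical Pxr-/- PCN 2, whereas the array at 10.20 was not one of these.

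**Figure D5:**
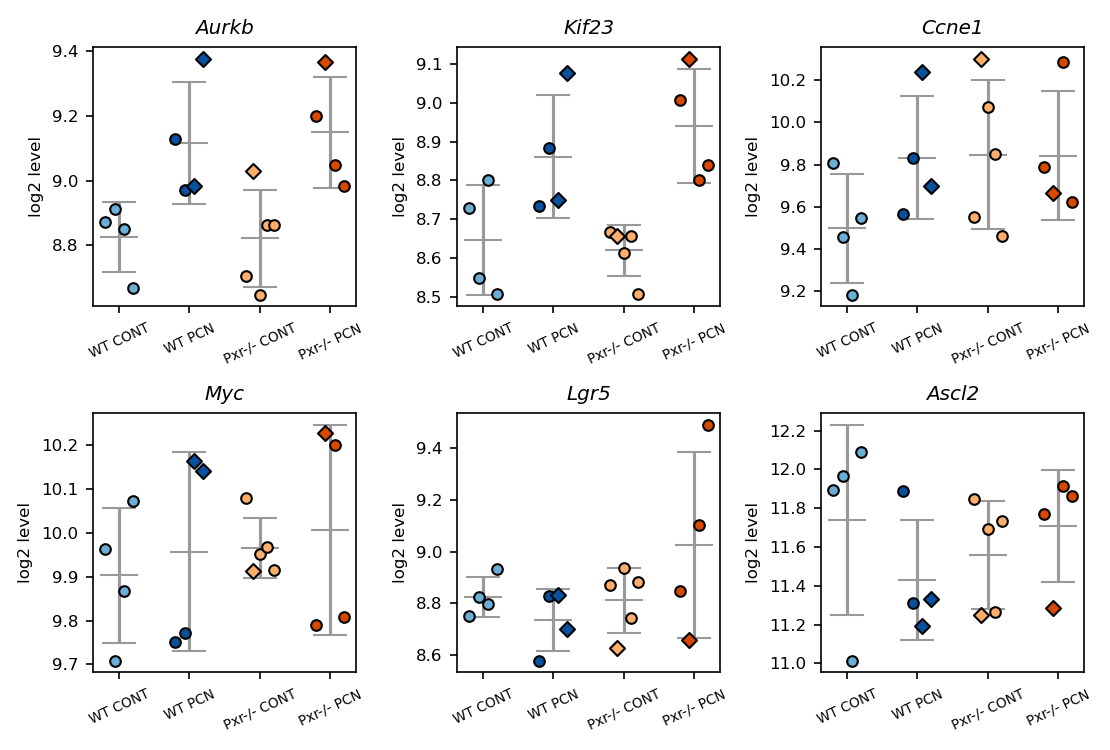
Log2 level of 6 genes on each array, by group, with the mean and SD in grey; diamonds are the near-identical arrays. The WT PCN arrays of Aurkb lie above those of WT CONT and the Pxr-/- groups of Aurkb overlap. Myc and Ascl2 separate arrays within groups, but both high Myc arrays of WT PCN are near-identical ones.

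The stem cell genes did not follow the cell cycle genes. LGR5 is a receptor for R-spondins, which strengthen Wnt signals. Lgr5 was at 8.75, 8.82, 8.80 and 8.93 in WT CONT 2 to 5, 8.58, 8.83, 8.83 and 8.70 in WT PCN 1 to 4, 8.87, 8.63, 8.94, 8.74 and 8.88 in Pxr-/- CONT 1 to 5, and 8.85, 8.66, 9.10 and 9.49 in Pxr-/- PCN 1 to 4, on the log2 scale. Means with SD were 8.83 ± 0.08 for the 4 WT CONT arrays, 8.74 ± 0.12 for 4 WT PCN, 8.81 ± 0.13 for 5 Pxr-/- CONT and 9.02 ± 0.36 for 4 Pxr-/- PCN, where Pxr-/- PCN 4 was the highest of all arrays. Without the 4 near-identical arrays the difference of Pxr-/- PCN minus WT PCN was 0.44 ± 0.16 (SE, adjusted p = 0.585 in limma). It sets 3 arrays against 2, among them the highest for Lgr5, Pxr-/- PCN 4, and the lowest, WT PCN 1. Over the alternatives this difference went from 0.09 (within wash bath 1) to 0.59 (within wash bath 2, where WT PCN has 1 array). Ascl2 was at 11.89, 11.96, 11.01 and 12.09 in WT CONT 2 to 5, 11.89, 11.31, 11.19 and 11.33 in WT PCN 1 to 4, 11.84, 11.25, 11.69, 11.27 and 11.73 in Pxr-/- CONT 1 to 5, and 11.77, 11.29, 11.91 and 11.87 in Pxr-/- PCN 1 to 4, on the log2 scale. The 17 arrays fell apart into 7 at 11.33 or lower and 10 at 11.69 or higher. Both kinds occurred in every group, but in Pxr-/- PCN the only low array was the near-identical Pxr-/- PCN 2. The 4 near-identical arrays were all among the 7, with WT CONT 4, WT PCN 2 and Pxr-/- CONT 4. Within wash bath 2 the difference of PCN in WT was 0.34, against -0.28 on all arrays, but it sets 1 PCN array against WT CONT 4 and 5, the lowest and the highest arrays for Ascl2.

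Of the other genes of these pathways none was called. Beside the counts that follow, 49.9% of all probes were above 0 for PCN in WT and 52% in Pxr-/-, and 4.66% and 7.35% had an unadjusted p under 0.05. Of 45 further mitotic genes, 40 were above 0 for PCN in WT (median 0.19) and 44 in Pxr-/- (median 0.15), with 4 and 0 at an unadjusted p under 0.05. Without the 4 near-identical arrays 30 were above 0 in WT (median 0.05) and 38 in Pxr-/- (median 0.11), with 0 in either at an unadjusted p under 0.05. On all arrays their largest values were those of Kif22, a chromokinesin gene, in WT (0.54 ± 0.22, SE, adjusted p = 0.956 in limma) and Kif4 in Pxr-/- (0.28 ± 0.15, SE, adjusted p = 0.746). The lowest were Mybl2 in WT (-0.12) and the securin gene Pttg1 in Pxr-/- (-0.12). Of 41 further replication genes, 30 were above 0 in WT (median 0.07) and 23 in Pxr-/- (median 0.01), and without the 4 arrays 25 (median 0.02) and 36 (median 0.09). The thymidine kinase gene Tk1 was the highest in both, at 0.30 ± 0.12 (SE, adjusted p = 0.956) and 0.22 ± 0.11 (SE, adjusted p = 0.702). Pold1 in WT (-0.12) and E2f2 in Pxr-/- (-0.26) were the lowest. Of 10 genes for inhibitors of cyclin-dependent kinases, 3 were above 0 in WT (median -0.05) and 10 in Pxr-/- (median 0.10), from Cdkn2b at -0.40 to Cdkn2a at 0.19 in WT and from Cdkn1b at 0.02 to Cdkn2b at 0.28 in Pxr-/-. Leaving out the 4 arrays, 5 were above 0 in WT (median 0.02) and 7 in Pxr-/- (median 0.10). Of 18 Wnt and crypt genes measured, 6 were above 0 in each genotype, with medians of -0.07 in WT and -0.08 in Pxr-/-, and without the 4 arrays 4 in WT (median -0.08) and 7 in Pxr-/- (median -0.05). Their extremes were Cd44 (0.44) and Aqp4 (-0.59) in WT, and Msi1 (0.21) and Aqp4 (-0.95) in Pxr-/-.

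In whole colon, fewer cells of a type and less RNA per cell cannot be told apart, so markers of other cells are given beside these values. Epithelial markers (10 genes, Epcam and keratins among them) had array means from 15.20 to 15.30 on the log2 scale in WT CONT, 15.05 to 15.43 in WT PCN, 15.18 to 15.43 in Pxr-/- CONT and 15.24 to 15.33 in Pxr-/- PCN. Colonocyte markers (12 genes) ranged from 14.74 to 14.86, 14.58 to 15.02, 14.63 to 14.78 and 14.16 to 14.82 in the same order. For PCN in WT, 6 of 10 epithelial and 4 of 12 colonocyte markers were above 0 (medians 0.05 and -0.03), and for PCN in Pxr-/- 4 of each (medians -0.02 and -0.08). Without the 4 arrays these were 5 and 7 in WT (medians -0.03 and 0.03) and 7 and 4 in Pxr-/- (medians 0.01 and -0.10).

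Smooth muscle markers differed with PCN in Pxr-/- mice, without passing the adjusted threshold. All 8 were lower (median -0.41), 6 at an unadjusted p under 0.05, beside 7.35% of all probes, from Acta2 at -0.16 to Synm at -0.83 ± 0.18 (SE, adjusted p = 0.253 in limma), with array means of 15.15 to 15.77 in Pxr-/- CONT and 14.86 to 15.32 in Pxr-/- PCN. In WT, 7 of 8 were above 0 (median 0.10), with array means of 15.04 to 15.74 in WT CONT and 15.15 to 15.61 in WT PCN. With the 4 arrays left out all 8 were lower in Pxr-/- (median -0.44), 4 at an unadjusted p under 0.05, beside 7.19%, and 7 of 8 were above 0 in WT (median 0.06). Their part in the levels of the mitotic genes in Pxr-/- PCN was not tested.

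Germinal centre B cells also divide. Their 7 markers had array means of 7.70 to 8.60 in WT CONT, 7.63 to 7.94 in WT PCN, 7.61 to 7.92 in Pxr-/- CONT and 7.68 to 7.93 in Pxr-/- PCN, with WT CONT 2 (8.49) and WT CONT 5 (8.60) standing apart. WT CONT 2 was the highest array for the replication genes and WT CONT 5 the lowest for the mitotic genes. All 7 were below 0 for PCN in WT (median -0.33) and 6 of 7 for genotype in CONT (median -0.39), whereas 4 of 7 were above 0 for PCN in Pxr-/- (median 0.03). The 9 follicular B cell markers were all below 0 for PCN in WT (median -1.13) and 8 of 9 above 0 for PCN in Pxr-/- (median 0.41), and 4 of 7 and 5 of 7 T cell markers were above 0 (medians 0.01 and 0.20). Without the 4 arrays the germinal centre, follicular and T cell medians were -0.38, -1.16 and -0.35 for PCN in WT (1 of 7, 0 of 9 and 0 of 7 above 0) and 0.02, 0.06 and 0.05 for PCN in Pxr-/- (4 of 7, 6 of 9 and 5 of 7). The germinal centre median for genotype in CONT was then -0.37. The part of lymphoid follicles in the levels of the 39 genes was not tested. The pancreatic and liver lists given above had medians of 1.19 and -0.16 for PCN in WT and of -1.58 and 0.27 for PCN in Pxr-/-, and without the 4 arrays -0.63 and 1.08 in WT and -0.45 and -0.09 in Pxr-/-.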

How the data were processed

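RNA of the colon was measured on 17 arrays of 4 groups, as labelled by the submitters. The authors hybridised Cy3-labelled RNA to 1-colour Agilent arrays, read them with Agilent Feature Extraction 10.10.1.1 and deposited each spot's intensity without normalization between arrays. A second deposited file, the authors' processed log2 values of 36695 probes, served to choose 1 probe per gene and as an alternative. The deposited median intensity, less outlier spots, was put on the log2 scale, quantile-normalized between arrays (the authors' CrossNorm could not be repeated) and averaged over the spots of a probe. A probe entered the test when 4 or more arrays read it well above background, which left 38703, tested with limma 3.58.1 in R 4.3.3, with terms for the 4 groups and the 2 wash baths and Benjamini-Hochberg adjustment over all probes. All p-values in the text come from this fit. Calls required both an FDR no higher than 0.05 and more than a 1.5-fold difference. Between 61% and 69.7% of probes were above the background on an array, no spot was saturated, and the number of arrays limits the precision. Labels do not say that arrays come from separate mice, so p-values measure the spread between samples.

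The 39 genes and all lists were chosen with earlier results of these data known. Every one of the 39 may be named. Differences with a test are given for called genes and the 3 largest per comparison, and values in every array for 12 genes chosen by role. Aurkb and Kif23 per array, Mcm5 and Lgr5 without the 4 arrays, and the single WT differences of Kif23 and Bub1b were added after their values were seen. Of other lists, the largest difference each way is named. Probe names are those of the array files, and all 39 accessions carried the same symbol in RefSeq. Alternatives were other background corrections, filters, scalings, batch terms, blocks, probe rules and arrays left out. The fit was tested on simulated data in which all arrays were drawn independently, so that test does not bear on the near-identical arrays. Leaving out only WT PCN 3 and 4, or only Pxr-/- CONT 2 and Pxr-/- PCN 2, was chosen after seeing the data.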

Additional observations from a re-analysis of the deposited data

Results flagged for a closer look

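For 20 values in 4 groups (80 checks), a single array was sought that lay far from the others of its group, which chance gives in about 1 of 20 groups. It was found 3 times. Rrm2 in Pxr-/- PCN 4 was at 10.45, with the nearest array of the group at 10.98. Birc5 in Pxr-/- CONT 4 was at 12.96, with the nearest at 13.18. The mean of the replication genes in WT CONT 2 was 11.15, with the nearest at 10.73. No pair of groups met the rule for a difference between genotypes in the effect of PCN.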

How the results depend on the processing

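None of the 39 genes was called under any alternative run, 35 or 36 for each of the 5 comparisons (179 in all). Of 522 alternatives for the 15 named differences, 518 kept their direction. Ascl2 reversed within wash bath 2, to 0.34 for PCN in WT, -0.0685 for genotype in PCN and -0.13 for the interaction, and Ccne1 reversed without the 4 near-identical arrays, to 0.0326 for the interaction. Within wash bath 2 WT PCN has 1 array. The cause was not tested. The median of the 39 genes stayed above 0 for PCN in WT (0.06 within wash bath 2 to 0.25 with array weights) and in Pxr-/- (0.06 without Pxr-/- PCN 1 to 0.27 with array weights). For genotype in CONT it went from -0.05 (slide as a fixed block) to 0.11. With arrays left out in turn it was 0.10 to 0.23 for PCN in WT and 0.06 to 0.24 in Pxr-/-. Replicate numbers did not pair the samples: over 15 pairs of arrays with the same number, the correlation of deviations from the group means went from -0.33 to 0.45, above 0.1 in 7. With the replicate block the median was 0.12 for PCN in WT and 0.13 in Pxr-/-, and calls stayed at 0. Of 17 genes with several tested probes, probes of opposite sign occurred in 2 (WT, PCN), 4 (Pxr-/-, PCN) and 9 (CONT, genotype). All 39 probes were above the background on every array, and groups held 4 or 5 arrays.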
